A study of Mus musculus with 22 samples.

Results

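Tnfsf11, Tnfrsf11b and Lrrc17 are 3 of the 55414 genes in a table of raw read counts from mouse skin fibroblasts, and all 3 passed the filter on low counts that left 17554 genes to test. They were taken by symbol, as RANK ligand (RANKL), its soluble decoy receptor osteoprotegerin, and the leucine-rich repeat protein Lrrc17. The set was picked with earlier results in view, namely the differences of Tnfsf11 and Lrrc17 between stretched and control skin and the dependence of the Lrrc17 difference on the day. Values of the 3 genes in those comparisons are therefore given as descriptions with no test.

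RANKL is a membrane-bound or shed cytokine of the TNF family that binds its receptor RANK on osteoclast precursors, dendritic cells and mammary epithelium. Binding recruits TRAF adaptors and switches on NF-kB, MAP kinases and NFATc1. Osteoprotegerin is secreted, has no membrane anchor, and keeps RANKL from RANK, so the amount of one relative to the other is commonly used to describe the pathway in bone stroma. Lrrc17 is a secreted protein described in osteoblast cultures as an inhibitor of RANKL-induced osteoclast formation. In skin, RANKL is known from keratinocytes and hair follicles.

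All mice had the same operation, an incision low on the back with a path opened under the skin towards the neck. The expanded mice (EXP) then received a hydrogel that swells under the skin, and the control mice (CTRL) did not, so both arms carry the wound and neither shows unoperated skin. The labels give no strain, age, sex, transgene or drug. Skin was taken at day 1 (4 CTRL and 5 EXP samples), day 2 (3 and 3) or day 4 (4 and 3), and 1 RNA library was made per sample. Cells positive for CD31, CD45, CD117 or EpCAM were discarded by flow sorting and live cells positive for CD34 and PDGFR alpha were kept, so the RNA describes that gate and not whole skin. The labels do not tie each sample to its own animal, so the p-values measure the spread between these samples, which may be partly technical. In such bulk RNA, fewer cells of a type and less RNA per cell cannot be told apart.

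The 22 libraries held 21461294 to 30210204 counts, and 3 counts, taken here as the floor, stood for 0.0805 to 0.157 CPM, the usual depth-scaled count, here with library totals adjusted by the trimmed mean of M-values (TMM). The gate's genes were found in all 6 groups: Pdgfra averaged 356 and 639 CPM in day 1 CTRL and EXP, and Cd34 1410 and 421 CPM, while Ptprc (CD45) reached at most 7 counts in any library. The summed level of 10 fibroblast genes was lower in EXP than in CTRL on days 1 and 2, without overlap. On day 4 it was 268000 to 371000 CPM in CTRL against 83900 to 281000 CPM in EXP. Most of that sum was collagen transcript: Col1a1, Col1a2 and Col3a1 averaged 81000, 73300 and 81000 CPM in day 1 CTRL. Of the 10, 1 was called higher and 5 lower in EXP on day 1, 1 and 6 on day 2, and 1 and 4 on day 4 (adjusted p under 0.05). Pdgfra was the higher one each day, and Pdgfrb and Thy1 were never called. A set of 192 genes that varied together within groups split the libraries into a high side, made of day 1 CTRL replicates 1 to 3, day 1 EXP replicates 1 and 2 and day 4 CTRL replicates 3 and 4, and a low side of all others. On day 2 every library was on the low side. On day 4 the high side held CTRL libraries only.

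The stretches before the starts of Tnfsf11 and Lrrc17 are shown because these genes lay on opposite sides of CTRL on day 1. Each is the 250 bases upstream of the gene's start in RefSeq on GRCm38.p6, where 2 of the 3 genes had an entry, written 5′ to 3′ on the gene's own strand. The first lies at chr14:78308044-78308293 on the minus strand and the second at chr5:21543277-21543526 on the plus strand. Capitals mark matches to the motifs listed after them.
Tnfsf11: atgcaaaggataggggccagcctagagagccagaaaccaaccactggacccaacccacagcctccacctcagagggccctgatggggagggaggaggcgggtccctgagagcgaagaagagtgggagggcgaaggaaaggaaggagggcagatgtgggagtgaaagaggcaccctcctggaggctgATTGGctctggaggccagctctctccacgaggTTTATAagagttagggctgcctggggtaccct
Lrrc17: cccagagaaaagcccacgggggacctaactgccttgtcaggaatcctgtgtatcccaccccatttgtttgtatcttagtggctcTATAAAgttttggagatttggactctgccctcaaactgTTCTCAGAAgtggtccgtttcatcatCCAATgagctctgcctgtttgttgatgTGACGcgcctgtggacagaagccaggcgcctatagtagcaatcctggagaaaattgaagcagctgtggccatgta
Both strands were searched for the TATA box TATAAA, the CCAAT box, the STAT-type site TTCNNNGAA, the cyclic AMP response half-site TGACG, the AP-1 site TGANTCA, the TEAD site GGAATG and an NF-kB site. The Tnfsf11 stretch, with 60.4% G and C, held ATTGG, which is CCAAT on the other strand, 64 bases before the start and TTTATA, which is TATAAA on the other strand, 32 bases before it. The Lrrc17 stretch, with 49.2% G and C, held TATAAA at 166, TTCTCAGAA at 128, CCAAT at 102 and TGACG at 75 bases before the start. Among 32851 promoters of the same length, 12.4% held TATAAA, 33.8% CCAAT, 7.0% TTCNNNGAA and 17.8% TGACG. The AP-1, TEAD and NF-kB letters were in neither window, and in 6.7%, 12.6% and 7.3% of all promoters. None of these letters was tested as a binding site.

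The ligand, Tnfsf11 (ENSMUSG00000022015), was close to undetected in CTRL fibroblasts and readily counted in EXP fibroblasts on every day. On day 1 the 4 CTRL libraries held 0.495, 0.0848, 0.358 and 0.192 CPM, from 12, 2, 10 and 5 counts. The 5 EXP libraries held 20.7, 27.6, 32.5, 11 and 11.1 CPM, from 304 to 896 counts. Replicates 4 and 5 were the lowest of the EXP group, and both lay far above every CTRL library. The group means were 0.282 ± 0.181 CPM (SD, n = 4) and 20.6 ± 9.67 CPM (SD, n = 5). EXP was 73-fold higher (log2 fold change 6.16, SE 0.76).

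On day 2 the CTRL libraries held 0.149, 0 and 0.0899 CPM, all at or under the floor of 3 counts, and the EXP libraries 24, 10.3 and 22.2 CPM. EXP was thus at least 128-fold higher, with the CTRL libraries set to their mean floor. Day 4 was the least uniform in both arms. CTRL held 0.193, 0.0858, 1.3 and 0.736 CPM and EXP 36.8, 13.2 and 5.43 CPM, 31.9-fold higher (log2 fold change 4.97, SE 0.73). Single libraries moved that value by more than 1.5 times: the log2 fold change was 3.98 without EXP replicate 1 and 5.74 without CTRL replicate 3. The groups still did not overlap, since the lowest EXP library exceeded the highest CTRL library.

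The 2 higher day 4 CTRL libraries, replicates 3 and 4, were those that the 192 genes placed on the high side. Within the low side, with 2 CTRL and 3 EXP libraries, the day 4 log2 fold change of Tnfsf11 was 7.02, and within the high side on day 1 it was 6.2. In the EXP arm alone Tnfsf11 showed no ordering by day: the change from day 1 to day 2 was -0.13 (SE 0.59) and from day 2 to day 4 -0.03 (SE 0.66) on the log2 scale, with overlapping libraries.

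The decoy receptor, Tnfrsf11b (ENSMUSG00000063727), was present in both arms and higher in EXP on each day, with no overlap. On day 1 CTRL held 16.4, 16.8, 18.1 and 25.2 CPM and EXP 117, 44.6, 85.9, 117 and 144 CPM. EXP replicate 2 was the lowest of its group, and the same library was among the higher ones for Tnfsf11. The means of 19.1 ± 4.12 (SD, n = 4) and 102 ± 38 CPM (SD, n = 5) correspond to a 5.31-fold higher level (log2 fold change 2.41, SE 0.36).

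On day 2 CTRL held 4.38, 2.66 and 6.65 CPM and EXP 124, 70 and 46.9 CPM, 17.6-fold higher (log2 fold change 4.13, SE 0.47). On day 4 CTRL held 3.97, 6.44, 11.2 and 8.48 CPM and EXP 65.9, 61.4 and 45.1 CPM, 7.64-fold higher (log2 fold change 2.93, SE 0.40). The larger ratio on day 2 went with a lower CTRL level than on day 1, while the EXP mean was 102 CPM on day 1, 80.1 ± 39.3 CPM on day 2 and 57.4 ± 10.9 CPM on day 4, with libraries that overlapped between days.

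The change over days within CTRL was not used to choose the genes and was tested. Of all genes tested, 0.291% were called. Tnfrsf11b was 1 of these 51 genes: it fell by 2.06 (SE 0.42) on the log2 scale from day 1 to day 2 and by 1.35 (SE 0.37) from day 1 to day 4, with no overlap in either case (edgeR joint test over days, adjusted p = 0.0397). That call sat close to the threshold of 0.05. It was lost without the low-count filter (adjusted p = 0.0865), with the library split as a covariate (0.0857), and in 8 of 11 fits that left out 1 CTRL library, namely any of the day 1 replicates, day 2 replicates 1 and 2, and day 4 replicates 2 and 4, over a range of 0.0284 to 0.113 for all 11. Over the other alternatives it ranged from 3.89e-06 to 0.0865. Tnfsf11 and Lrrc17 did not pass (adjusted p = 0.389 and 0.346). For Tnfsf11 the CTRL libraries held only 0 to 31 counts, so the test could easily miss a change. Its log2 change was -1.75 (SE 1.23) from day 1 to day 2 and 2.78 (SE 1.14) from day 2 to day 4.

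**Figure D1:**
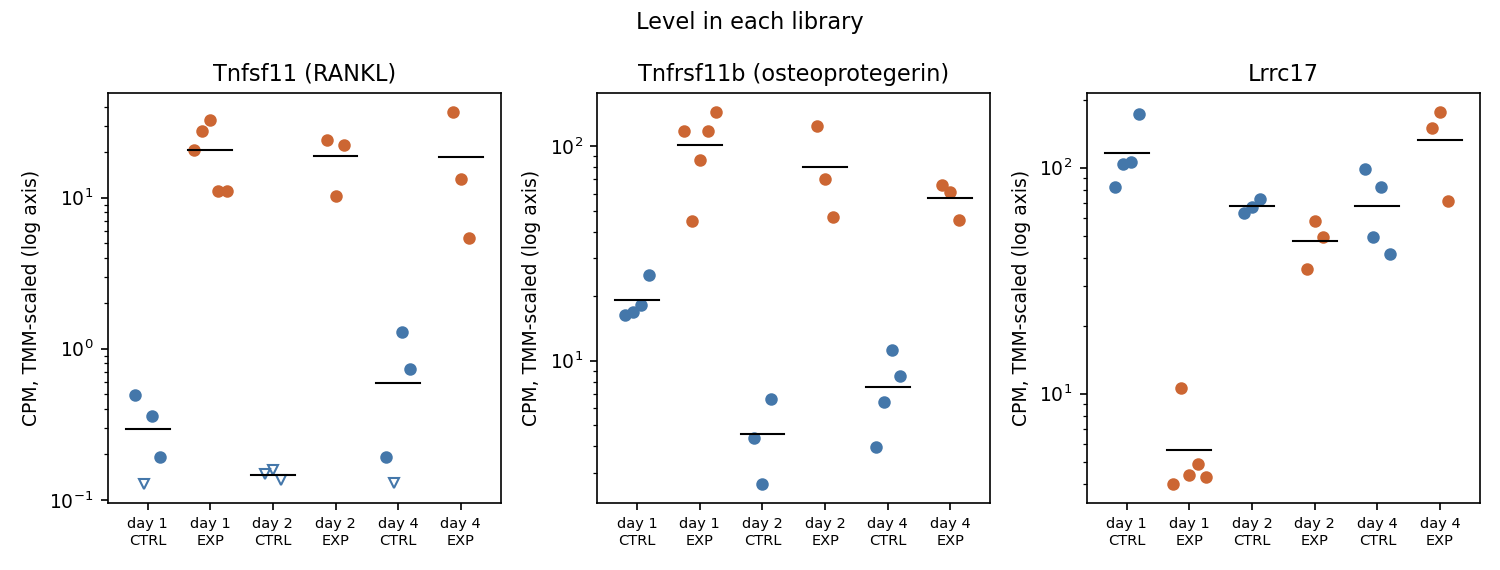
Level of Tnfsf11, Tnfrsf11b and Lrrc17 in each of the 22 libraries, in TMM-scaled CPM on log axes, CTRL in blue and EXP in orange. Points are libraries, open triangles mark libraries with 3 or fewer counts drawn at their floor, and bars are group means with those libraries at the floor; EXP lies above CTRL on all days for the first 2 genes, while Lrrc17 is lowest in day 1 EXP.

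Lrrc17 (ENSMUSG00000039883) had another time course: it was abundant in CTRL on every day, very low in EXP on day 1, and near or above CTRL afterwards. On day 1 CTRL held 82, 104, 106 and 172 CPM and EXP 3.98, 10.6, 4.36, 4.9 and 4.27 CPM. The highest EXP library, replicate 2, was still well under the lowest CTRL library. The means were 116 ± 38.8 (SD, n = 4) and 5.63 ± 2.81 CPM (SD, n = 5), so that CTRL was 20.6-fold higher and the log2 fold change, EXP against CTRL, was -4.36 (SE 0.35).

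On day 2 CTRL held 62.9, 66.7 and 72.3 CPM and EXP 35.6, 57.9 and 49.3 CPM, a log2 fold change of -0.50 (SE 0.39). The groups did not overlap on this scale, but the small difference depended on the scaling. With plain library totals the log2 fold change was -0.05, CTRL ranged from 50.4 to 59.5 and EXP from 45 to 61.7 CPM, and the groups overlapped. On day 4 CTRL held 98.3, 49.2, 81.9 and 41.3 CPM and EXP 149, 176 and 71.5 CPM. That was a log2 fold change of 0.96 (SE 0.36) or 1.95-fold, and EXP replicate 3 lay within the CTRL range.

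Within EXP, Lrrc17 was 8.46-fold higher on day 2 than on day 1 (log2 change 3.08, SE 0.35) and 2.77-fold higher on day 4 than on day 2 (1.47, SE 0.39), with no overlap at either step. In CTRL the log2 change from day 1 to day 2 was -0.78 (SE 0.37), also without overlap. The exons of Lrrc17 overlap those of Fbxl13 on the opposite strand in GENCODE M21, and whether the counting used strand is not given in the sources used here. Fbxl13 held at most 2.22 CPM in any library, and 0 to 0.255 CPM in day 1 EXP, where Lrrc17 was lowest.

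**Figure D2:**
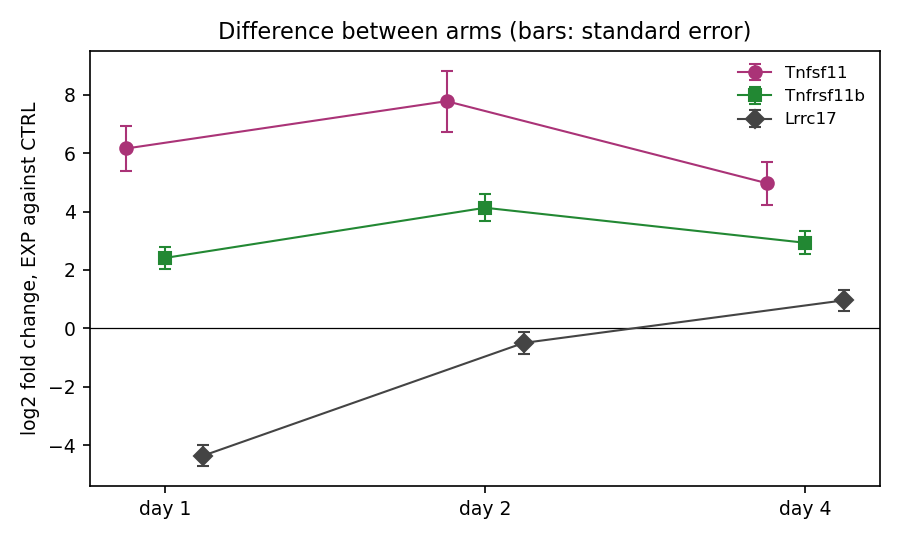
Log2 fold change of EXP against CTRL on days 1, 2 and 4 for the 3 genes, with bars of 1 standard error from the edgeR fit over 22 libraries. Tnfsf11 and Tnfrsf11b stay above 0 on all days, and Lrrc17 moves from -4.36 on day 1 through -0.50 to 0.96 on day 4.

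Over all genes tested, 28.6% were called between EXP and CTRL on day 1 (13.9% higher and 14.7% lower in EXP), 13.4% on day 2 (7.72% higher and 5.71% lower) and 22.5% on day 4 (12.8% higher and 9.66% lower). The median log2 fold change of all genes was 0.02, 0.02 and 0.03. The effect of expansion was called as differing between days for 8.82% of genes. Because Tnfsf11, Tnfrsf11b and Lrrc17 were selected on these contrasts, nothing about them is read from these shares.

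Per kilobase of exon the order of the 3 genes changed with the arm. In CTRL it was Lrrc17, Tnfrsf11b, Tnfsf11 on every day: on day 1 the levels were 32.1, 6.79 and 0.126 CPM per kb. In day 1 EXP Lrrc17, at 1.56 CPM per kb, was under both Tnfrsf11b at 36.1 and Tnfsf11 at 9.21. On day 2 EXP the levels were 28.4 for Tnfrsf11b, 13.2 for Lrrc17 and 8.42 for Tnfsf11, and on day 4 EXP Lrrc17 was the highest at 36.6, with Tnfrsf11b at 20.4 and Tnfsf11 at 8.26 CPM per kb. Ranked among all tested genes by level per kb, Tnfsf11 stood at the 10.5th percentile in day 1 CTRL and the 77.7th in day 1 EXP, Tnfrsf11b at the 73.5th and 92.2nd, and Lrrc17 at the 91.9th and 46th.

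Osteoprotegerin transcript exceeded RANKL transcript per kb in all 22 libraries. The ratio of RANKL to osteoprotegerin, with RANKL counts of 3 or fewer set to 3, had a median of 0.0172 in day 1 CTRL (0.00952 to 0.038) and 0.224 in day 1 EXP (0.0967 to 0.782). On day 2 it was at most 0.0255 to 0.0741 in the CTRL libraries, all upper limits because RANKL was at the floor, and 0.186, 0.244 and 0.598 in EXP. On day 4 CTRL ranged from 0.0252 to 0.146 and EXP held 0.152, 0.27 and 0.704. The arms did not overlap on any day, though on day 4 the highest CTRL library and the lowest EXP library were nearly level. Both genes were thus higher in EXP and the ligand by the larger factor. Since the ligand was selected on this contrast, that ordering is a description.

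**Figure D3:**
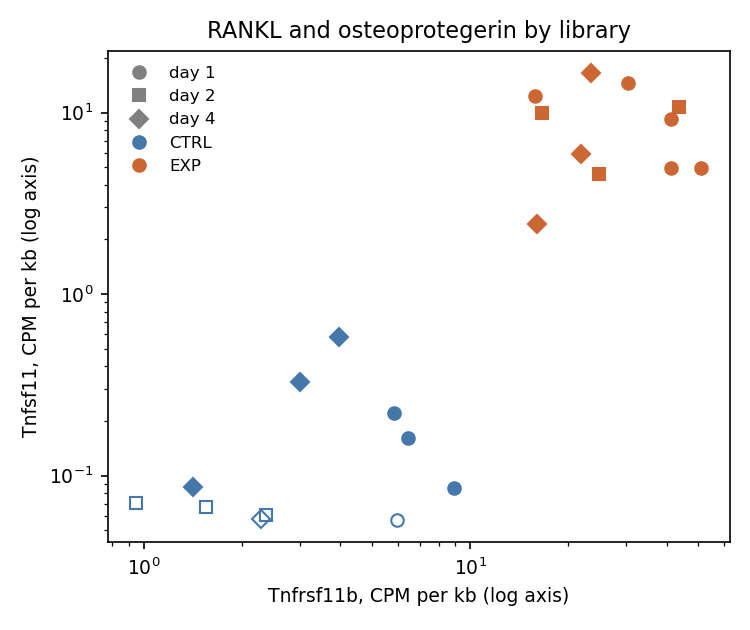
Tnfsf11 against Tnfrsf11b in CPM per kb of exon, both axes logarithmic, 1 point per library, shapes for days, blue for CTRL and orange for EXP, open symbols for Tnfsf11 at 3 or fewer counts drawn at the floor. The EXP libraries form the upper right group on all days, and all 22 libraries have more Tnfrsf11b than Tnfsf11 per kb.

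Among 18 ligands of the TNF superfamily compared per kb, Tnfsf11 ranked 8th, 10th and 6th in CTRL on days 1, 2 and 4 and second in EXP on each day. The highest in all 6 groups was Tnfsf9 (4-1BB ligand), at 72 ± 28.1 CPM per kb in day 1 CTRL and 37 ± 7.68 in day 1 EXP. In day 4 EXP the rank of Tnfsf11, at 8.26 ± 7.31, was not separated by its spread from Tnfsf8 at 2.33 ± 0.955 CPM per kb. Among 28 TNF receptors, Tnfrsf11b ranked 8th, 14th and 11th in CTRL and 6th, 6th and 5th in EXP, and Tnfrsf12a (the TWEAK receptor) was first throughout.

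The genes most like each member over the 22 libraries were found by the Pearson correlation of log2 CPM among 10865 genes with at least 5 CPM in some group. These values are descriptions: the libraries share their arms and days, so any gene that differs between arms correlates. For Tnfsf11 they were Il33, an alarmin cytokine of the IL-1 family (r = 0.951), Ctps, a CTP synthase (0.943), the kinase Nek6 (0.943), the metalloproteinase inhibitor Timp1 (0.939) and Cpxm1 (0.939). Mean Il33 was 27.6 CPM in day 1 CTRL, 508 in day 1 EXP, 7.76 and 402 on day 2, and 17.8 and 593 on day 4.

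For Tnfrsf11b they were the cell adhesion molecule Chl1 (0.936), the protease inhibitor Slpi (0.932), the HDL receptor Scarb1 (0.93), Wfdc17 (0.926) and the lysosomal protease Lgmn (0.926). Chl1 shared with Tnfrsf11b a CTRL level that was higher on day 1 than later: its means were 106, 22.3 and 38.4 CPM in CTRL and 573, 421 and 288 CPM in EXP on days 1, 2 and 4. For Lrrc17 they were Hacd4, of the fatty acid elongation cycle (0.951), Cby1 (0.949), Bphl (0.944), Cdk5rap3 (0.94) and the UFM1-specific protease Ufsp2 (0.937). Hacd4 averaged 21.3 CPM in day 1 CTRL and 2.08 in day 1 EXP, then 11.3 in day 2 EXP and 25 in day 4 EXP. No gene was among the 5 of more than 1 member.

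The rest of the pathway was followed through 8 lists with 126 genes, of which 97 were tested. On day 1, 26 of the 97 were higher and 12 lower in EXP, beside 13.9% and 14.7% of all genes tested. On day 2 the counts were 18 and 5 (all genes 7.72% and 5.71%), and on day 4 they were 14 and 26 (12.8% and 9.66%). The counts of each list and marker group stand beside these same shares. Since the lists were chosen with earlier results of these data known, their counts are descriptions. The medians of the 97 genes on the 3 days were 0.12, -0.04 and -0.2 on the log2 scale. On days 2 and 4 the counts depended on single libraries: 23 were called on day 2, but 15 without CTRL replicate 1 and 14 without EXP replicate 1 or 3, and 40 on day 4, but 18 without EXP replicate 1 and 24 without EXP replicate 2. On day 4 the low-side libraries alone, 2 against 3, gave 1 call over all 17554 genes and 0 in the lists, so no day 4 call of a list gene held within that side. Some log2 fold changes were also smaller there, as for Pth1r (-1.1, against -2.47 in the main fit) and Mmp14 (-1.11 against -1.97). Others were similar, as for Cxcl12 (3.33 against 3.3) and Il11 (5.77 against 5.89). From the 7 libraries of day 4 alone 11 list genes were called, and the day 4 calls of Pth1r, Lgr4, Traf3, Mmp14, Il34, Wnt5a and Alpl were lost (adjusted p = 0.0524 to 0.0716). On day 1, 22 of the list genes were called within the high side.

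Among known inducers of RANKL in stromal cells and their receptors, more were called higher than lower in EXP on the first 2 days. As the list was chosen with earlier results known, this is a description, and a link to the RANKL level was not tested. Tnf, Tnfrsf1a and Tnfrsf1b are also counted in the lists of TNF ligands and receptors. Of 20 tested, 10 were higher and 3 lower on day 1 (median 0.7), 8 and 0 on day 2 (median 0.45), and 3 and 4 on day 4 (median 0.21). Il11, an IL-6 family cytokine that raises RANKL in osteoblasts, rose on all days: from 2.03 ± 1.07 to 15.9 ± 6.31 CPM on day 1 (log2 fold change 2.96, SE 0.61, adjusted p = 0.00142), by 4.31 on day 2 (adjusted p = 0.00137) and by 5.89 on day 4 (adjusted p = 1.29e-04), where EXP averaged 95.7 ± 115 CPM. Lif, of the same family, rose from 19.3 ± 3.03 to 191 ± 49.4 CPM on day 1 (log2 fold change 3.31, SE 0.33, adjusted p = 3.92e-06) and by 1.73 on day 2 (adjusted p = 0.00452). On day 4 Lif averaged 76.6 ± 42 CPM in CTRL and 68.4 ± 18.9 CPM in EXP and was not called (adjusted p = 0.765).

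The prostaglandin branch, whose product PGE2 induces RANKL, was higher in EXP at its enzymes and lower at 1 of its receptors. Ptgs2 (COX-2) rose from 261 ± 95.8 to 1230 ± 458 CPM on day 1 (log2 fold change 2.24, adjusted p = 4.58e-04) and by 2.61 on day 2 (adjusted p = 0.00188), and its day 4 value of 0.95 was not called (adjusted p = 0.114). Ptges, the PGE synthase, rose by 2.30 on day 2 (adjusted p = 0.00138) and 1.76 on day 4 (adjusted p = 0.00331). Its day 1 value was 0.84 (adjusted p = 0.062). Ptger4, a PGE2 receptor, fell by 0.69 on day 1 (adjusted p = 0.025) and by 0.96 on day 4 (adjusted p = 0.0137), and Ptger2, under 1 CPM in every group, was not called. Pth1r, the receptor for parathyroid hormone, a classical RANKL inducer, went the other way: it fell by 1.70 on day 1 (adjusted p = 0.00918) and by 2.47 on day 4 (adjusted p = 0.00602), from 49.8 ± 36.5 to 9.03 ± 2.67 CPM.

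Several other inducers were not called. Il6 averaged 534 ± 94.9 CPM in CTRL and 819 ± 234 CPM in EXP on day 1 (adjusted p = 0.121), and its adjusted p was 0.897 on day 2 and 0.351 on day 4. Tnf reached at most 30 counts and Osm at most 2 counts in any library. Il1r1, the IL-1 receptor, was higher in EXP on all days, by 1.32, 1.5 and 0.85 on the log2 scale (adjusted p = 1.89e-04, 0.00106 and 0.016).

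**Figure D4:**
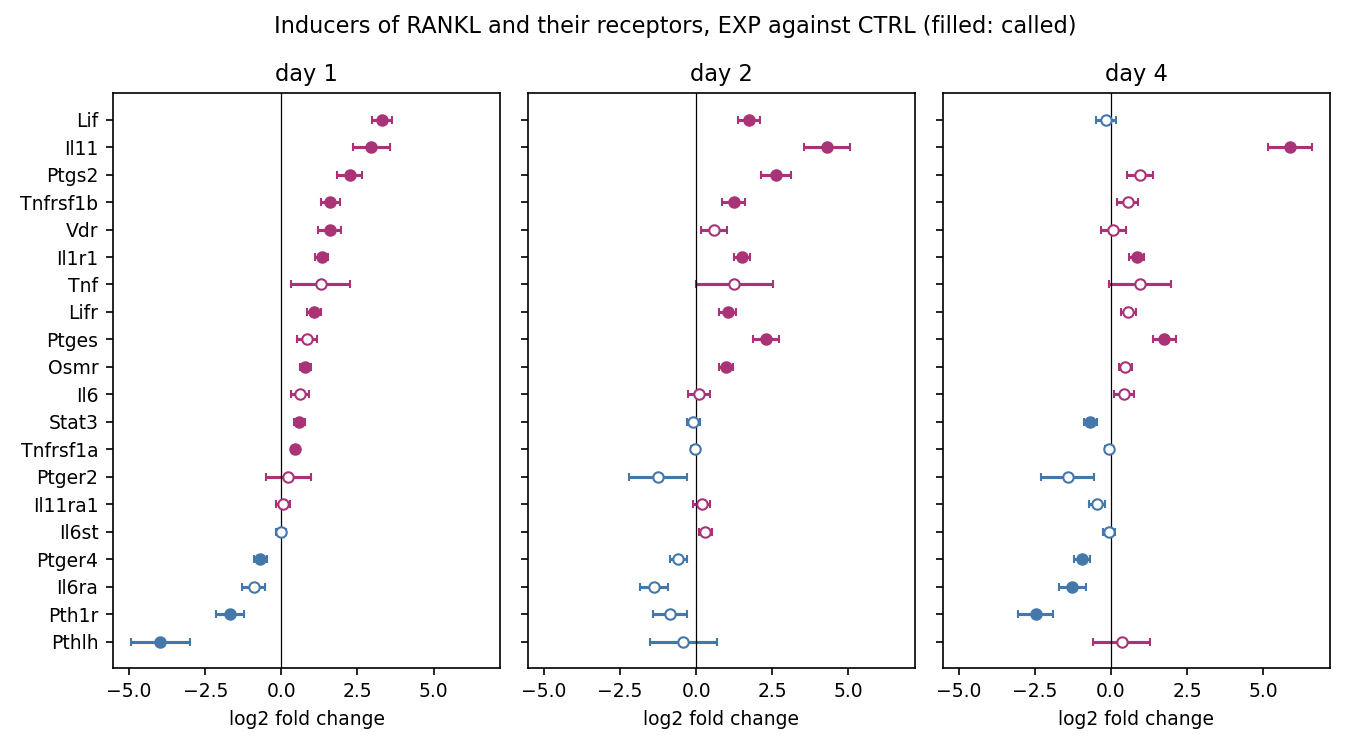
Log2 fold change of EXP against CTRL with 1 standard error for the 20 tested inducers of RANKL and their receptors, in 1 panel per day. Filled points passed an adjusted p of 0.05, pink is above 0 and blue below; Il11 is filled on all days, Lif and Ptgs2 on days 1 and 2, and Pth1r lies below 0 on days 1 and 4.

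RANK itself was not found at a usable level: Tnfrsf11a held at most 5 counts (0.192 CPM) in any library and was not tested. The list tested here held genes acting below RANK and also Lgr4. Of its 18 tested genes, 6 were higher and 1 lower on day 1 (median 0.29). The counts were 0 and 1 on day 2 (median -0.3), and 1 and 8 on day 4 (median -0.63). Nfkb1, the p50 precursor, rose from 71.1 ± 14.6 to 185 ± 64.7 CPM on day 1 (log2 fold change 1.38, adjusted p = 5.36e-04), and its day 2 and day 4 values of 0.1 and -0.2 were not called. Traf3, an adaptor that restrains non-canonical NF-kB, rose by 0.86 on day 1 (adjusted p = 0.0122; 0.0807 within the high side), and on day 4 it fell by 1.09 (adjusted p = 0.0108), a call lost without EXP replicate 1 (0.0768). Tab1, a partner of the kinase TAK1, fell by 1.07 on day 1 (adjusted p = 0.00716). Lgr4, a receptor that binds Wnt-enhancing R-spondins and also RANKL, rose by 1.02 on day 4, from 3.29 ± 0.564 to 6.67 ± 0.246 CPM (adjusted p = 0.00848).

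Wnt signals raise osteoprotegerin in osteoblasts. The list for regulators of osteoprotegerin holds activators and inhibitors of Wnt signalling and other genes such as Esr1. Its counts and medians therefore give no direction of that signalling. Of 16 tested genes of that list, 1 was higher and 3 lower on day 1 (median -0.2), 1 and 2 on day 2 (median -0.54), and 0 and 6 on day 4 (median -0.61). Ebf2 is a transcription factor that acts on the osteoprotegerin gene in osteoblasts. Its level fell from 13.5 ± 3.55 to 3.17 ± 1.91 CPM on day 1 (log2 fold change -2.10, adjusted p = 6.62e-04). A link between genes of this list and the Tnfrsf11b level was not tested. On day 4 Ebf2 stood at 9.63 ± 3.81 and 20.1 ± 9.09 CPM and was not called (adjusted p = 0.0882). Esr1, the oestrogen receptor, fell by 1.64 on day 1 (adjusted p = 0.00586). On day 4 the Wnt target Nkd1 fell by 4.87 (adjusted p = 0.00236), the ligand Wnt11 by 3.84 (adjusted p = 0.00422) and Wnt5a by 2.05 (adjusted p = 0.00997).

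Of 4 tested proteases that can shed RANKL, 0 were higher and 1 lower on day 1, 1 and 0 on day 2, and 1 and 1 on day 4. Adam19 rose from 6.16 ± 2.49 to 65 ± 43 CPM on day 4 (log2 fold change 3.40, adjusted p = 0.0017). Mmp14 fell by 1.97 on day 4 (adjusted p = 0.00944), a call lost without EXP replicate 1 (adjusted p = 0.0649). Among 8 stromal factors that act on osteoclast precursors, 2 were higher and 1 lower on day 1, 1 and 0 on day 2, and 1 and 3 on day 4. Csf1, the growth factor that precursors need beside RANKL, averaged 464 ± 32.8 and 585 ± 120 CPM on day 1 (adjusted p = 0.179), and fell from 714 ± 201 to 324 ± 51.9 CPM on day 4 (log2 fold change -1.14, adjusted p = 0.0015). Il34, the other ligand of the CSF1 receptor, fell by 1.94 on day 1 (adjusted p = 4.64e-04) and by 1.75 on day 4 (adjusted p = 0.00723). Cxcl12, a chemokine for precursors, rose by 3.35 on day 2 (adjusted p = 7.39e-04) and 3.30 on day 4 (adjusted p = 3.21e-04).

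Of the other TNF ligands, 10 were tested, with 1 higher and 2 lower on day 1, 1 and 1 on day 2, and 2 and 1 on day 4. Tnfsf8 (CD30 ligand) was, like Tnfsf11, near the floor in CTRL and higher in EXP on all days: its log2 fold change was 4.10 on day 1 (adjusted p = 4.96e-04) and 6.97 on day 4 (adjusted p = 1.72e-04), and on day 2, with CTRL at the floor, EXP was at least 63.1-fold higher (adjusted p = 3.52e-04). Tnfsf9 fell by 0.96 on day 1 (adjusted p = 0.00924, and 0.051 without CTRL replicate 1) and by 1.43 on day 2 (adjusted p = 0.00689). Of 18 other receptors tested, 7 were higher and 0 lower on day 1, 4 and 0 on day 2, and 3 and 2 on day 4. Tnfrsf12a rose from 210 ± 44.4 to 558 ± 68.3 CPM on day 1 (log2 fold change 1.41, adjusted p = 9.47e-05) and was not called later. Tnfrsf26, which shares sequence with its neighbours Tnfrsf22 and Tnfrsf23 so that its counts are uncertain, rose by 1.61 on day 1 (adjusted p = 6.88e-05) and 1.45 on day 2 (adjusted p = 0.00243).

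Genes of the osteoblast lineage, the cells in which RANKL and osteoprotegerin are best known, were mixed. Of 6 tested, 1 was higher and 1 lower on day 1, 3 and 1 on day 2, and 3 and 1 on day 4. Alpl, alkaline phosphatase, rose from 5.37 ± 1.99 to 62.2 ± 32.4 CPM on day 1 (log2 fold change 3.53, adjusted p = 5.50e-05), by 3.76 on day 2 (adjusted p = 7.15e-04) and by 1.79 on day 4 (adjusted p = 0.0155, and 0.0789 without EXP replicate 1). Runx2, a transcription factor of that lineage, rose by 3.01 on day 2 (adjusted p = 7.15e-04) and 2.18 on day 4 (adjusted p = 0.00194), to 6.34 ± 3.8 CPM. Spp1, osteopontin, rose by 3.66 on day 2 (adjusted p = 0.00138) and 4.30 on day 4 (adjusted p = 2.53e-04). The lower gene on all 3 days was Col1a1, which fibroblasts also express; its calls on days 1 and 4 were lost in 6 of 9 and 5 of 7 fits that left out 1 library, and that on day 2 without EXP replicate 1. The bone matrix genes Bglap and Ibsp were not tested. Bglap was highest on day 4, at 0.556 CPM in 1 library, and Ibsp averaged 0.0215 CPM in day 4 CTRL and 1.34 ± 2.21 CPM (SD, n = 3) in day 4 EXP, where the highest library held 3.89 CPM.

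Activated T cells are another source of RANKL. Of 7 T cell markers, Cd3d, Cd3g and Trac held at most 3 counts in every library, while Cd3e reached 1077 counts. The sort discarded CD45-positive cells, and Ptprc, which encodes CD45, held at most 7 counts. Whether T cells contributed to the Tnfsf11 counts was not tested. The sum of the 7 markers ranged from 0.335 to 7.53 CPM in day 4 CTRL and 13.6 to 29.9 CPM in day 4 EXP. Most of it was Cd3e, which rose on day 4 from 2.87 ± 2.85 to 18.6 ± 8.95 CPM (adjusted p = 0.0115). Lck, the other marker tested, averaged 0.396 CPM in day 4 EXP and was not called (adjusted p = 0.321). On days 1 and 2 the sum ranged from 0.763 to 4.75 CPM in CTRL and 2.51 to 8.69 CPM in EXP.

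Markers of osteoclasts, the cells that RANKL matures in bone, were mixed. Of 8, Dcstamp was at 0 in every library and 5 were tested, with 0 higher and 1 lower in EXP on day 1, 0 and 0 on day 2, and 2 and 0 on day 4. The 2 higher on day 4 were Mmp9, from 0.168 ± 0.151 to 7.06 ± 8.3 CPM (adjusted p = 0.00426), and Calcr, at 0 in CTRL and 0.365 ± 0.358 CPM in EXP (adjusted p = 0.0434). Mmp9 was the lower one on day 1 (adjusted p = 0.0136). Ctsk, which fibroblasts also express, averaged 3640 to 6540 CPM over the 6 groups and Acp5 6.25 to 30.9 CPM, and neither was called on any day.

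Other cell types' markers differed between the arms as well. The sum of 6 adipocyte markers was 0.593 to 29.3 CPM in day 1 CTRL and 0.0637 to 0.365 in day 1 EXP, 0.349 to 3.29 and 9.92 to 130 on day 2, and 0.335 to 2.81 and 3.06 to 702 on day 4. Of 5 tested, 0 were called higher and 1 lower in EXP on day 1, 2 and 0 on day 2, and 5 and 0 on day 4. In day 4 EXP replicate 1 had the highest Tnfsf11 (36.8 CPM) with the lowest adipocyte sum (3.06) and the lowest sum of the 10 fibroblast genes (83900 CPM). Replicate 3 had the lowest Tnfsf11 (5.43 CPM) with the highest sums (702 and 281000 CPM). The sum of 7 endothelial and lymphatic markers was higher in EXP without overlap on day 2 (1.39 to 2.46 CPM in CTRL and 2.83 to 8.92 in EXP) and day 4 (5.45 to 12.6 and 23.6 to 52.8 CPM). Of the 4 tested, only Kdr was called, on both days (adjusted p = 0.0345 and 0.0179). Tek, the largest part of the sum on day 4, was not called (adjusted p = 0.12 and 0.0563), nor was Pecam1 (0.532 and 0.211). On day 2 the sum of 8 myeloid markers was lower in EXP without overlap (110 to 163 CPM in CTRL and 59.3 to 84.8 in EXP), as was that of 7 pericyte and smooth muscle markers (49.1 to 59.3 and 26.3 to 48 CPM). Each sum was mostly 1 gene that was not called, Csf1r (136 and 59.8 CPM, adjusted p = 0.0629) and Kcnj8 (43.8 and 15.8 CPM, adjusted p = 0.107). Among the myeloid genes Cd68 was called higher in EXP (adjusted p = 0.0217). Among the pericyte genes Acta2 was called higher (adjusted p = 0.0254) and Des lower (adjusted p = 0.0217). On days 1 and 4 the myeloid and the pericyte sums overlapped between arms. Keratinocytes, which can express RANKL, gave a marker sum of 9.41 to 47.6 CPM in CTRL and 3.35 to 19.8 CPM in EXP over the 3 days. That sum was lower in EXP on day 2 without overlap, and the groups overlapped on days 1 and 4. The part of the T cell, osteoclast and other markers in the results was not tested.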

How the data were processed

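The deposited table holds the authors' raw read counts per Ensembl gene for 22 libraries of sorted mouse fibroblasts (whole-number counts, not normalized). The submitters' processing notes name Trimmomatic and the genome build mm39; the counting tool, annotation and strand setting are not given in the sources used here. Symbols and exon lengths came from GENCODE M21 (52081 of 55414 genes matched) and upstream sequence from RefSeq on GRCm38.p6, so no gene coordinate of the counts is given.

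Genes were filtered with filterByExpr (minimum count 10), scaled by TMM and fitted with edgeR 4.0.16 in R 4.3.3 (robust quasi-likelihood, 1 mean per group, 16 residual degrees of freedom). A prior count of 2 was used for log2 CPM values, as in the correlations and the library split. Log2 fold changes came from the fit with its default prior count. Adjusted p-values are Benjamini-Hochberg over 17554 genes per contrast, called under 0.05. Alternatives were DESeq2 1.42.0, other scalings and low-count filters, each day alone, the library split as a covariate or within its sides, a replicate block, and leaving out each library. The same steps were checked on counts drawn with known changes in 200 genes of day 1 EXP. They recovered 33% of the 2-fold and 71% of the 4-fold changes, with 3 false calls among 107. A gene that was not called may therefore still differ.

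The members and gene lists were chosen with earlier results of these data known. Named besides the members are up to 4 called genes per list and day with the largest change and at least 1 CPM, fewer where a call rested on single libraries, and the 5 genes most like each member. Il1r1, Il6, Ptger2, Ptger4, Cd3e, Bglap and Ibsp, the not-called values, and the marker genes other than the sort markers were named after their values were seen. Of 66 genes the rule named, 23 overlap exons of another gene in M21, and without the strand setting their reads cannot be told apart. Floors cover counting error only. No replicates were copies of each other: a chi-square test of their counts gave 19.6 to 285 per degree of freedom.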

Additional observations from a re-analysis of the deposited data

Results flagged for a closer look

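Lrrc17 in day 1 EXP replicate 2 stood apart from its group at 10.6 CPM, against 3.98 to 4.9 CPM in the other 4 libraries. It was 1 of 9 sets of libraries examined for a single distant value, and chance alone would give 0.45.

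Among 48 named genes of the lists, the effect of expansion differed between days for 13 (edgeR test of the difference, adjusted p), against 8.82% of all genes tested. The 48 were named for a large called change on at least 1 day, a choice that favours such differences, so nothing is read from that count. Lif (8.04e-04) went from a log2 fold change of 3.31 on day 1 to -0.16 on day 4, Tnfrsf26 (0.00516) from 1.61 to -0.25, Traf3 (0.00764) from 0.86 to -1.09, Csf1 (0.00753) from 0.33 to -1.14, Tnfrsf12a (0.0155) from 1.41 to 0.06 and Nfkb1 (0.0223) from 1.38 to -0.2. In the other direction were Spp1 (8.04e-04), from -0.85 to 4.3, Cxcl12 (0.00519), from 0.3 to 3.3, Ebf2 (0.00736), from -2.1 to 1.06, and Runx2 (0.0175), from 0.41 to 2.18. These 10 calls held in all 22 fits that left out 1 library. Lgr4 (0.0267) and Adam19 (0.0305) each lost the call in 6 of those fits, and Fas (0.0473) in 17.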

How the results depend on the processing

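No value of the 3 genes reversed under 153 alternatives. Leaving out 1 library could hardly move a value by more than the spread between replicates, so for those fits this measure shows little. Of the 153, 149 moved by less than that spread. The others were Lrrc17 on day 1 within the high side of the library split (-3.76), Lrrc17 on day 2 with plain library totals (-0.05), and, within the low side on day 4, Tnfrsf11b (3.46) and Tnfsf11 (7.02). Leaving out single libraries gave log2 fold changes on days 1, 2 and 4 of 5.87 to 6.54, 7.25 to 8.48 and 3.98 to 5.74 for Tnfsf11, 2.25 to 2.6, 3.68 to 4.48 and 2.72 to 3.19 for Tnfrsf11b, and -4.72 to -4.11, -0.67 to -0.32 and 0.68 to 1.27 for Lrrc17. Within CTRL, Tnfrsf11b from day 1 to day 2 ranged from -2.44 to -1.81.

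Counts of called genes depended more on the setting. On day 1 the count was 5017 and 2210 within the high side (list genes 38 and 22), with 4024 to 4830 (29 to 38) when single libraries were left out. On day 2 it was 2359, 4632 with plain library totals, and 891 to 2177 when single libraries were left out (list genes 23, then 14 to 23), lowest without EXP replicate 1. On day 4 it was 3943, 1128 from that day's libraries alone and 1 within the low side (list genes 40, 11 and 0), and 1633 to 5011 when single libraries were left out (18 to 50), lowest without EXP replicate 1. Within CTRL over days the 51 calls became 163 with plain library totals, 82 with a stricter filter, 102 without the 10 genes of most counts, 29 with the split as covariate, 1267 by DESeq2, and 5 to 92 when single libraries were left out. Plain library totals moved the median of all genes to 0.21, 0.49 and 0.36 on days 1, 2 and 4 and the share of calls higher in EXP from 48.7%, 57.5% and 57% to 66.2%, 90.5% and 80.8%. The causes were not tested.

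Same-numbered samples of the arms did not deviate together on every day (mean correlations 0.045, -0.024 and 0.112), so the numbers were not taken as pairs. A replicate block within day gave 4337, 2210 and 2702 calls, 35, 27 and 36 list genes, and values of 6.31, 7.84 and 5.05 for Tnfsf11, 2.18, 4.11 and 3.09 for Tnfrsf11b, and -4.34, -0.52 and 0.74 for Lrrc17. A block for the change over days within CTRL was not run. Depth limits Tnfsf11 in CTRL, where 5 libraries held 3 or fewer counts.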
